A study of Mus musculus with 10 samples.

Results

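Cholesterol synthesis in the liver was followed through 27 genes: 19 enzymes that carry acetyl units through mevalonate, the isoprenoids and squalene to cholesterol, 6 genes of the SREBP2 control system, and 2 genes of sterol transport and receptor turnover. They were selected on pathway knowledge and on the measured fold changes between these same CACS and NCACS livers, and they make up 27 of the 43629 genes in the count table. All 27 passed the filter on low counts that left 14143 genes for testing. The RNA came from whole livers of 5 NCACS and 5 CACS adult male mice with lung cancer, where CACS stands for cancer anorexia–cachexia syndrome and NCACS for tumour-bearing mice without it, and each library came from 1 mouse. All 10 mice were of the same genotype, KL, which includes Lkb1 flox/flox, crossed back to FVB, and all had tumours started by an adenovirus given into the nose that carries Cre recombinase under the CMV promoter, so that Cre is not limited to 1 cell type and no tumour-free liver was analysed here. The groups were set by weight lost from the peak. The weight change in the labels was -8.0 ± 4.64% (SD, n = 5) in NCACS mice, from -14 to -3%, and -30.6 ± 1.82% (SD, n = 5) in CACS mice, from -33 to -29%. Which mice shared a batch, a litter or a time of collection is not given in the sources used here.

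Animal cells make cholesterol from acetyl-CoA in the cytosol and the endoplasmic reticulum, and the liver is a main site of this synthesis. SREBP2, encoded by Srebf2, is a transcription factor held in the endoplasmic reticulum membrane with its escort SCAP. When membrane sterol is low, SCAP carries it to the Golgi, the proteases encoded by Mbtps1 and Mbtps2 release its active part, and this part switches on the genes of the synthesis pathway. When sterol is ample, the INSIG proteins hold SCAP back. Insig1 is itself an SREBP target, which closes a feedback loop.

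SREBP2 is known to bind sterol regulatory elements close to the start of its targets, next to CCAAT boxes bound by NF-Y and GC boxes bound by Sp1, and the bases before the start of transcription were therefore read for these genes. RefSeq windows of 250 bases before to 50 after the start (GRCm38.p6) were found for 23 of the 27 genes. Parts of 4 are shown 5′ to 3′, with matches in capitals to 4 motifs searched on both strands: an SRE core (CACCCCAC), CCAAT, the GC box GGGCGG and the E-box CACGTG, where ATTGG and CCGCCC are the CCAAT and GC boxes on the other strand. Hmgcs1 is shown as 1 of the 2 genes with the SRE core, Sc5d and Insig1 as an enzyme and a feedback gene that fell, and Mbtps2 as a gene with none of the 4 motifs.
Hmgcs1 (chr13:119690101-119690350, plus strand): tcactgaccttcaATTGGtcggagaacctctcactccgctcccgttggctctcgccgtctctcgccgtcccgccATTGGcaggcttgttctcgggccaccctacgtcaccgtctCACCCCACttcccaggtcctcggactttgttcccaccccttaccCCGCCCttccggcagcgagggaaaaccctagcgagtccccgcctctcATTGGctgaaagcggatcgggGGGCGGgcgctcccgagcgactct
Insig1 (chr5:28071162-28071362, plus strand): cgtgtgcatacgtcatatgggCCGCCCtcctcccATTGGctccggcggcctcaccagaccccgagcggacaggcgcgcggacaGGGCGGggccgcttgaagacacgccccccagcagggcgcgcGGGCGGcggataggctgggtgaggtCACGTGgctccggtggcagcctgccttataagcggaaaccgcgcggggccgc
Sc5d (chr9:42264301-42264550, minus strand): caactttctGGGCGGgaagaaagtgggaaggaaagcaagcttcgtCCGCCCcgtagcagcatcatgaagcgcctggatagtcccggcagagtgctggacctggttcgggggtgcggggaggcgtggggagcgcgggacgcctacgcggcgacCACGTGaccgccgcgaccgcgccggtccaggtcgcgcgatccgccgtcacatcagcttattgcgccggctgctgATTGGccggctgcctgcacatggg
Mbtps2 (chrX:157598716-157598965, minus strand): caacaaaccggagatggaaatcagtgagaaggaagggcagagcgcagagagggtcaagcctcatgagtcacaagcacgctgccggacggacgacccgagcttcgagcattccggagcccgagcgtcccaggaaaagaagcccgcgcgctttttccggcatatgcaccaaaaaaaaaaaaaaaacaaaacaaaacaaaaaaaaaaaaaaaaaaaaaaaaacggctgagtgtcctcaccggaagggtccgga
For Hmgcs1, Sc5d and Mbtps2 these are the 250 bases up to the start, and the Insig1 stretch runs from 250 to 50 bases before it. The RefSeq starts of Hmgcs1 and Sc5d lie upstream of the GENCODE M21 starts of these genes, and that of Insig1 lies inside its gene. Motif positions are counted from the RefSeq starts.

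Of the 23 genes, 19 (82.6%) had a CCAAT box in a window, against 41.1% of 27025 genes with windows, and 20 (87.0%) had a GC box, against 38.2%. The exact SRE core was found in 2 genes (8.70%), Acat2 and Hmgcs1, against 3.30% of all genes, and an E-box in 5 (21.7%), against 8.09%. The 5 genes with an E-box were Dhcr7, Hsd17b7, Insig1, Sc5d and Scap. Hmgcs1 carried its SRE core at -136, counted from the start with -1 as the base before it, between CCAAT boxes at -176 and -45. CCAAT was present in 10 of the 12 genes that were later called lower in CACS livers and in 9 of the 11 that were not, and the GC box in 12 of 12 and 8 of 11. A match gives the letters of a window and does not show binding, and the motif shares were not tested.

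In NCACS livers the genes differed widely in level per transcript length (RPKM, the TMM-scaled read count per kilobase of a gene's annotated exons, computed here). Ebp, which shifts the double bond of the sterol ring, was the most abundant at 105 ± 13.4 RPKM (SD, n = 5). It was followed by Hmgcs1 at 81.1 ± 37.4, Sc5d at 76.4 ± 14.004, Insig1 at 66.7 ± 22.2 and Fdps at 61.0 ± 23.6 RPKM, and the SDs of neighbours in this order overlapped. The protease gene Mbtps2 was the least abundant at 0.765 ± 0.0916 RPKM, below Ggps1 at 1.08 ± 0.116 and Mylip at 1.82 ± 0.325 RPKM. In CACS livers the order by mean RPKM was different. Ebp stayed first at 77.5 ± 10.4 RPKM, Hmgcs1 went from place 2 to place 6 at 18.3 ± 7.72 RPKM, and Insig2 from place 9 to place 2 at 31.9 ± 8.77 RPKM, although its own mean was 40.3 ± 23.2 RPKM in NCACS livers.

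**Figure D1:**
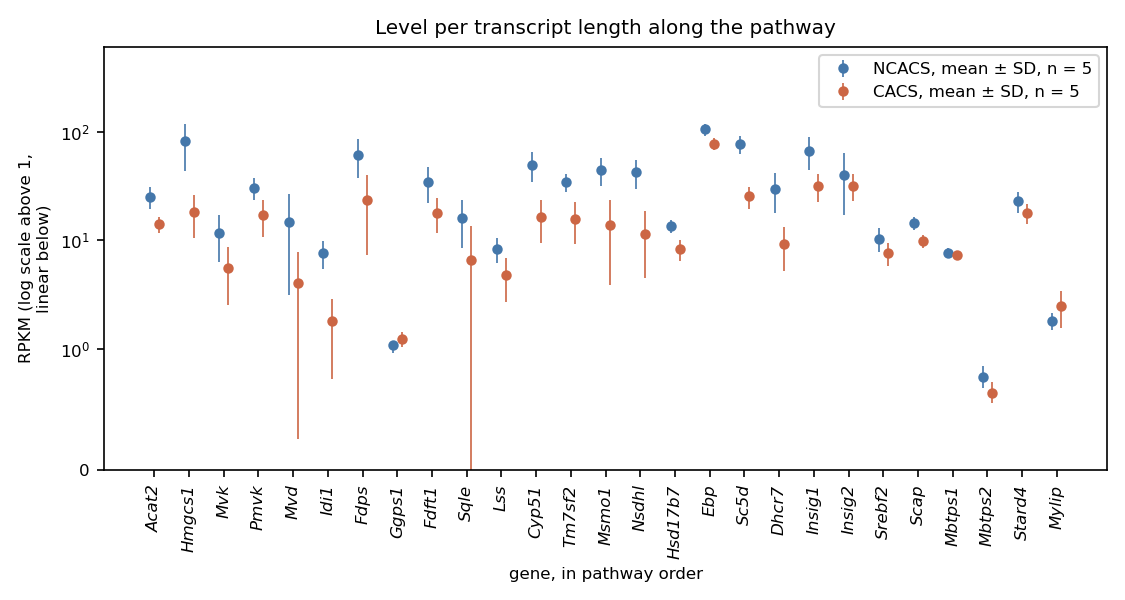
Level of the 27 genes in pathway order, in RPKM, as mean ± SD over 5 livers for NCACS (blue) and CACS (orange), on an axis that is logarithmic above 1 and linear below. The CACS point lies under the NCACS point for all genes but Ggps1 and Mylip, and the bar of Sqle in CACS livers reaches 0.

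The comparison of CACS with NCACS livers asks how liver transcription differs between tumour-bearing mice with and without cachexia. In it, 12 of the 27 genes were lower in CACS livers at an adjusted p-value under 0.05 (edgeR's quasi-likelihood test, Benjamini-Hochberg adjustment over all 14143 genes), and none was higher, against 1.92% of all tested genes called lower and 1.89% called higher. The genes were proposed with this contrast in view, so their counts, folds and non-overlapping groups describe them and are no independent evidence. The 12 were Acat2, Hmgcs1, Idi1, Cyp51, Tm7sf2, Msmo1, Nsdhl, Hsd17b7, Sc5d and Dhcr7 among the enzymes, and Insig1 and Scap among the regulators. In each of these 12, every CACS liver was below every NCACS liver, and in none of the other 15 were the groups apart in either direction, against 3.13% of all tested genes with groups apart and CACS lower and 3.95% with CACS higher. Fitted log2 fold changes were below 0 for 25 of the 27 genes, with a median of -0.94 over the 27 and -1.29 over the 19 enzymes, against -0.01 over all genes tested. At an unadjusted p-value under 0.05, 21 were lower and 0 higher, against 10.3% of all genes lower. DESeq2 called 19 lower and 0 higher, against 714 lower and 672 higher of all 14143 genes. limma-voom called the same 12, against 271 lower and 238 higher of all genes. In whole liver, fewer cells of a type and less RNA per cell cannot be told apart.

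**Figure D2:**
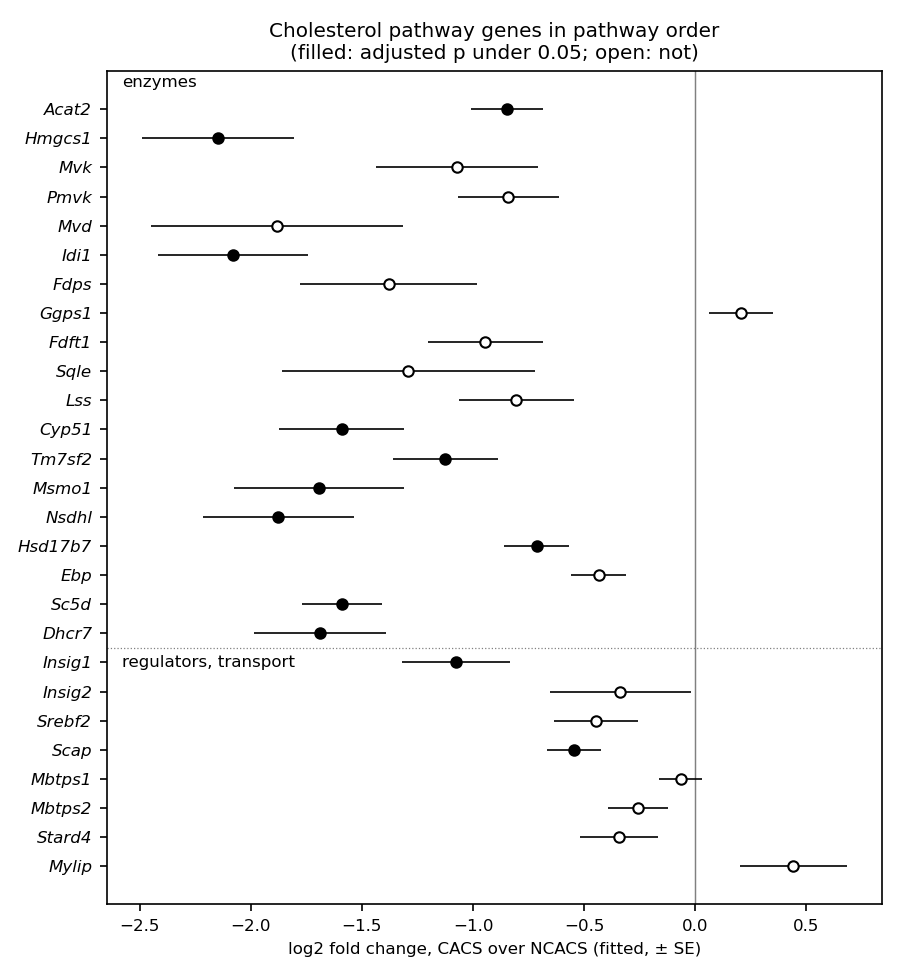
Fitted log2 fold change of CACS over NCACS livers (points) with its SE (bars) for the 27 genes in pathway order, filled where the adjusted p-value was under 0.05. The 12 filled points run from -2.15 (Hmgcs1) to -0.54 (Scap), and Ggps1 and Mylip lie to the right of 0.

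Both genes of the first steps were lower in CACS livers. Acat2 (ENSMUSG00000023832, chromosome 17, 12942890 to 12960747, minus strand) encodes the cytosolic thiolase that joins a pair of acetyl-CoA molecules. Its level, in CPM (counts scaled to the TMM-adjusted library size), was 69.5, 59.1, 87.7, 50.9 and 53.1 CPM in NCACS mice 11 to 15 and 28.7, 37.1, 33.9, 33.7 and 44.7 CPM in CACS mice 16 to 20. The log2 fold change was -0.85 (SE 0.163), which left CACS livers at 55.6% of the NCACS mean. When single mice were left out in turn, it was called in 7 of 10 fits, and lost without NCACS mouse 11 or CACS mouse 16 or 19, with folds from -0.94 to -0.71. Of the 100-base windows of Acat2 transcripts, 35.3% also occur in Acat3 or Tcp1, so reads there cannot be told apart, and Acat3 had a log2 fold change of -0.58 (SE 0.183, adjusted p = 0.0937 in edgeR's test).

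Hmgcs1 (ENSMUSG00000093930, chromosome 13, 119690379 to 119708260, plus strand), the synthase that makes HMG-CoA in the cytosol, had the largest fold of the 27. It measured 268, 259, 596, 221 and 519 CPM in NCACS mice 11 to 15 and 66.2, 88.7, 63.2, 58.1 and 144 CPM in CACS mice 16 to 20. The NCACS livers spread widely, with mice 13 and 15 well above the other 3, yet the highest CACS liver, mouse 20, was below all of them. The log2 fold change was -2.15 (SE 0.341), and CACS livers held 22.6% of the NCACS mean.

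None of the 3 mevalonate genes was called by edgeR, whereas DESeq2 called all 3 lower. Mvk, mevalonate kinase, averaged 31.5 ± 14.4 CPM (NCACS) against 14.96 ± 8.19 CPM (CACS), with the SD over 5 livers after the sign, and had a log2 fold change of -1.07 (SE 0.365). Pmvk, the next kinase, averaged 52.4 ± 11.98 CPM (NCACS) against 29.2 ± 10.7 CPM (CACS), a log2 fold change of -0.84 (SE 0.228). In both genes mouse 20 overlapped the NCACS range. Mvd, the decarboxylase that yields isopentenyl diphosphate, averaged 27.5 ± 21.7 CPM (NCACS) against 7.46 ± 6.98 CPM (CACS), with a log2 fold change of -1.88 (SE 0.567) and the widest relative spread of the 3. Its NCACS mean rested on mouse 13 at 66.0 CPM, where the other NCACS livers had 13.1 to 20.4 CPM, and without that mouse the log2 fold change was -1.26.

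Of the 3 isoprenoid genes, 1 was lower. Idi1 (ENSMUSG00000058258, chromosome 13, 8885501 to 8892451, plus strand), the isomerase that makes dimethylallyl diphosphate, measured 25.2, 23.1, 34.9, 16.6 and 34.5 CPM in NCACS mice 11 to 15 and 5.60, 5.61, 3.65, 4.06 and 12.8 CPM in CACS mice 16 to 20. Mouse 20 was more than 2 times as high as any other CACS liver and still below the lowest NCACS liver, mouse 14. The log2 fold change was -2.08 (SE 0.337), with CACS at 23.6% of NCACS, and although 19.98% of the windows of Idi1 also occur in Gm13502, that gene was listed at 0.0404 CPM in NCACS livers. Fdps, farnesyl diphosphate synthase at the branch point to sterols, averaged 257 ± 99.5 CPM (NCACS) against 98.6 ± 68.0 CPM (CACS), a log2 fold change of -1.38 (SE 0.399) that was called by DESeq2 but not by edgeR, with mouse 20 at 217 CPM against 44.6 to 84.7 CPM in the other CACS livers. Ggps1, which sends farnesyl diphosphate away from sterols into geranylgeranyl diphosphate, was the only enzyme with a fold above 0. It measured 5.40, 4.33, 4.72, 5.63 and 5.40 CPM in NCACS mice 11 to 15 and 6.37, 6.92, 6.33, 4.96 and 4.84 CPM in CACS mice 16 to 20. The groups overlapped, and the log2 fold change of 0.21 (SE 0.143) was not called by edgeR or DESeq2.

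The 3 genes from squalene to lanosterol were not called by edgeR either, and DESeq2 called Fdft1 and Lss lower but not Sqle. Fdft1, squalene synthase, averaged 146 ± 52.6 CPM (NCACS) against 76.1 ± 26.8 CPM (CACS), a log2 fold change of -0.94 (SE 0.257). Of its windows, 21.5% are shared, mostly with Ctsb on the opposite strand, a gene at 732 ± 25.3 CPM (NCACS) against 614 ± 51.8 CPM (CACS). Sqle, squalene epoxidase, a rate-limiting enzyme of the later pathway, averaged 88.8 ± 41.4 CPM (NCACS) against 36.3 ± 39.0 CPM (CACS), a log2 fold change of -1.29 (SE 0.568). The spread in CACS came from mouse 20, whose 105 CPM stood above 4 of the 5 NCACS livers, whereas the other CACS livers had 9.92 to 28.3 CPM. Without mouse 20 the log2 fold change was -2.21 and edgeR called Sqle. Lss, which closes the ring to lanosterol, averaged 90.3 ± 23.7 CPM (NCACS) against 51.7 ± 22.2 CPM (CACS), a log2 fold change of -0.80 (SE 0.258).

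The 8 enzymes that turn lanosterol into cholesterol held 7 of the called genes, the exception being Ebp. Cyp51 (ENSMUSG00000001467, chromosome 5, 4081145 to 4104746, minus strand), the lanosterol demethylase, measured 227, 187, 309.8, 129 and 235 CPM in NCACS mice 11 to 15 and 53.2, 73.0, 49.9, 60.2 and 125 CPM in CACS mice 16 to 20. Tm7sf2 (ENSMUSG00000024799, chromosome 19, 6062821 to 6068373, minus strand), a sterol reductase, measured 188, 154, 171, 121 and 125 CPM in NCACS mice 11 to 15 and 56.8, 53.3, 51.0, 65.9 and 121 CPM in CACS mice 16 to 20. The groups of both genes lay close at 1 pair of livers, NCACS mouse 14 and CACS mouse 20, which in Tm7sf2 both stood at 121 CPM with mouse 14 just above. The log2 fold changes were -1.59 (SE 0.282) for Cyp51 and -1.13 (SE 0.237) for Tm7sf2, whose exons overlap those of Vps51 on the same strand. Cyp51 was called in all 10 fits without 1 mouse, and Tm7sf2 in 4, those without NCACS mouse 14 or 15 or CACS mouse 17 or 20, with folds from -1.42 to -1.03.

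Msmo1 (ENSMUSG00000031604, chromosome 8, 64718139 to 64733792, minus strand) oxidizes the methyl groups at carbon 4 of the ring, and measured 246, 220.3, 391, 199 and 304 CPM in NCACS mice 11 to 15 and 69.7, 69.9, 40.0, 51.8 and 189 CPM in CACS mice 16 to 20. Nsdhl (ENSMUSG00000031349, chromosome X, 72918557 to 72958514, plus strand) acts on the same carbon, and measured 142, 116, 167, 76.7 and 100.4 CPM in NCACS mice 11 to 15 and 23.8, 28.4, 19.1, 24.6 and 67.9 CPM in CACS mice 16 to 20. Both had mouse 18 as the lowest liver and mouse 20 as the highest CACS liver, and in Msmo1 mouse 20 came within 10 CPM of NCACS mouse 14. The log2 fold changes were -1.69 (SE 0.383) for Msmo1 and -1.88 (SE 0.340) for Nsdhl. Nsdhl was called in all 10 fits without 1 mouse, but Msmo1 in only 1, that without CACS mouse 20, with folds from -2.23 to -1.52. Hsd17b7 (ENSMUSG00000026675, chromosome 1, 169949535 to 169969241, minus strand), the ketoreductase of this demethylation, measured 66.3, 62.3, 81.6, 60.1 and 77.6 CPM in NCACS mice 11 to 15 and 38.6, 39.5, 34.5, 40.7 and 58.9 CPM in CACS mice 16 to 20. Its fold was smaller, at a log2 fold change of -0.71 (SE 0.148), with little spread within the groups apart from mouse 20. It was called in 4 of 10 fits without 1 mouse, those without NCACS mouse 12 or 14 or CACS mouse 17 or 20, with folds from -0.86 to -0.65.

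Sc5d (ENSMUSG00000032018, chromosome 9, 42251595 to 42264256, minus strand), which puts in the double bond at carbon 5, measured 350.3, 261, 419.6, 418 and 410.4 CPM in NCACS mice 11 to 15 and 96.2, 161, 116, 99.6 and 144 CPM in CACS mice 16 to 20. The groups were wide apart, with NCACS mouse 12 and CACS mouse 17 the nearest livers, and mouse 20 was not the highest CACS liver here. Its log2 fold change of -1.59 (SE 0.182) was the only 1 of the 27 called at a threshold of 0.01. Dhcr7 (ENSMUSG00000058454, chromosome 7, 143823145 to 143848410, plus strand), a reductase at the end of the pathway, measured 167, 142, 288, 115 and 148 CPM in NCACS mice 11 to 15 and 41.7, 49.2, 37.8, 43.8 and 94.5 CPM in CACS mice 16 to 20. It had NCACS mouse 13 and CACS mouse 20 each far above the rest of its group, and a log2 fold change of -1.69 (SE 0.298). Ebp averaged 242 ± 31.0 CPM (NCACS) against 179 ± 24.1 CPM (CACS), and its log2 fold change of -0.43 (SE 0.122), the smallest of the lower enzymes, was not called by edgeR but was by DESeq2.

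**Figure D3:**
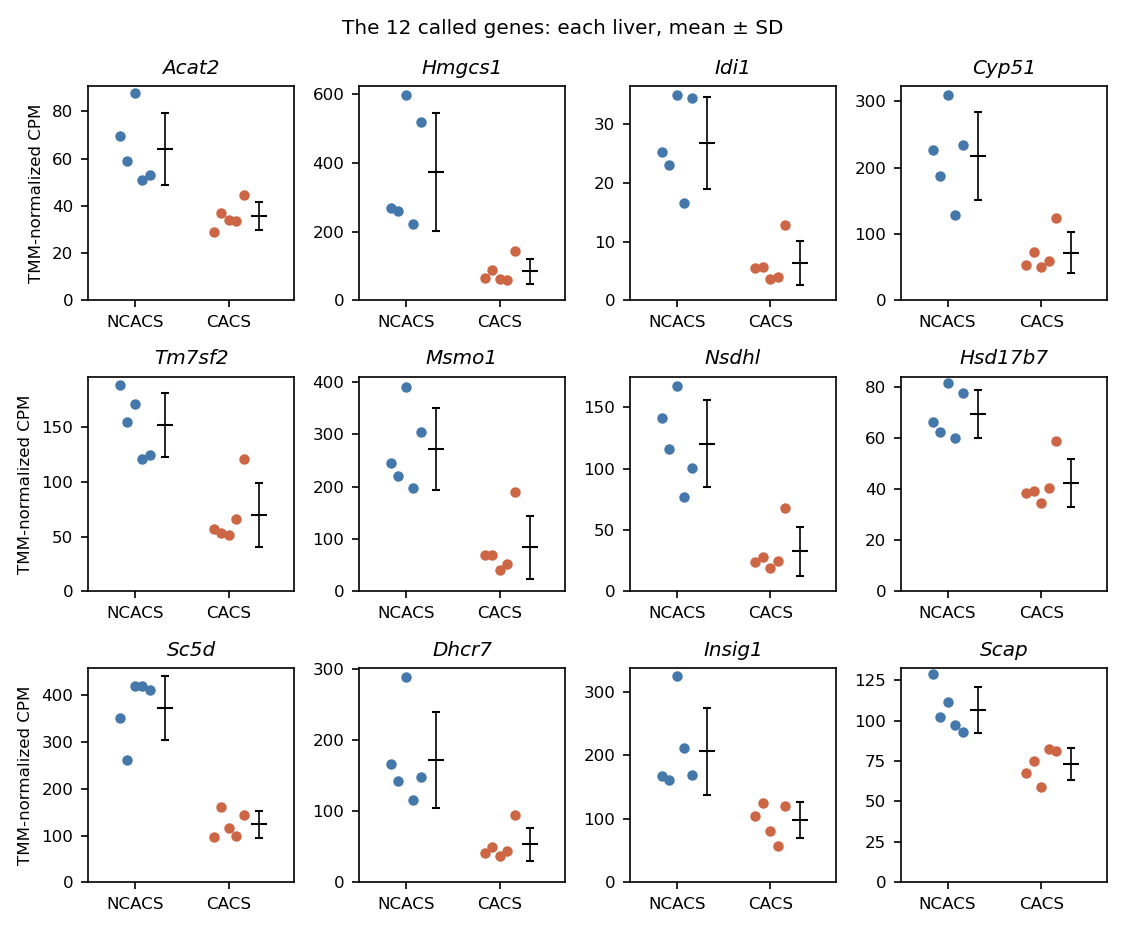
Level of the 12 genes called lower in CACS livers, in TMM-normalized CPM on axes that start at 0, with 1 point per liver in mouse order from left to right within a group and the mean ± SD (n = 5) beside the points. The groups are apart in all 12 panels, closest in Tm7sf2, Hsd17b7, Cyp51 and Msmo1, where CACS mouse 20 sits just under the lowest NCACS liver.

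Among the 6 control genes, the feedback gene Insig1 and the escort Scap were lower in CACS livers, though each was called in only 2 of the 10 fits without 1 mouse. Insig1 (ENSMUSG00000045294, chromosome 5, 28071363 to 28078662, plus strand) measured 167, 161, 324, 211 and 169 CPM in NCACS mice 11 to 15 and 104, 125, 80.8, 58.0 and 120.4 CPM in CACS mice 16 to 20. Mouse 19 was the lowest, not mouse 18 as for most enzymes, and the log2 fold change was -1.08 (SE 0.245). It was called without NCACS mouse 12 or CACS mouse 17 and lost without any other, with folds from -1.18 to -0.85. Scap (ENSMUSG00000032485, chromosome 9, 110333288 to 110384950, plus strand) measured 129, 102, 111, 97.0 and 92.9 CPM in NCACS mice 11 to 15 and 67.7, 74.9, 59.0, 82.4 and 81.0 CPM in CACS mice 16 to 20. Its log2 fold change was small, -0.54 (SE 0.120), with an SD of under 15 CPM in each group, and 7.22% of its windows are shared with a transcript on the opposite strand. It was called without NCACS mouse 15 or CACS mouse 17 and lost without any other, with folds from -0.59 to -0.47.

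The other 4 control genes were not called by edgeR or DESeq2. Srebf2 itself averaged 74.5 ± 17.99 CPM (NCACS) against 54.7 ± 13.2 CPM (CACS), a log2 fold change of -0.45 (SE 0.189), and mouse 20, at 73.1 CPM, was at the level of the NCACS livers. Mbtps1, the first protease to cut SREBP2, had the smallest fold of the 27. It measured 91.6, 84.2, 81.4, 71.6 and 73.3 CPM in NCACS mice 11 to 15 and 81.6, 73.3, 80.8, 81.8 and 66.8 CPM in CACS mice 16 to 20, a log2 fold change of -0.07 (SE 0.0953) with overlapping groups. Mbtps2, the second protease, averaged 7.73 ± 0.926 CPM (NCACS) against 6.46 ± 0.906 CPM (CACS), a log2 fold change of -0.26 (SE 0.134), and its exons overlap those of Yy2 on the same strand. Insig2, the other INSIG gene, averaged 140.0 ± 80.7 CPM (NCACS) against 111 ± 30.4 CPM (CACS), a log2 fold change of -0.34 (SE 0.316). That value rested on NCACS mouse 15, at 282 CPM against 88.9 to 130.2 CPM in the other NCACS livers. Without this mouse it was 0.087, on the other side of 0.

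Neither transport gene was called by edgeR or DESeq2. Stard4, a carrier of free cholesterol between membranes, averaged 127 ± 27.7 CPM (NCACS) against 100.5 ± 21.3 CPM (CACS), a log2 fold change of -0.34 (SE 0.177). Mylip, a ubiquitin ligase that removes lipoprotein receptors and is switched on by sterols through LXR, averaged 5.89 ± 1.05 CPM (NCACS) against 7.99 ± 2.99 CPM (CACS), a log2 fold change of 0.44 (SE 0.241). CACS mice 16 and 17 stood at 11.1 and 11.3 CPM, and the other CACS livers inside the NCACS range.

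Within a group, the same livers were high or low for most enzymes. For each liver, the log2 CPM of each of the 19 enzymes was set against its NCACS mean, and the 19 differences were averaged. Among NCACS livers the average was 0.57 in mouse 13, which had the highest level of its group for 17 of 19 enzymes, and -0.43 in mouse 14, the lowest for 16 of 19. The other NCACS mice had averages between -0.17 and 0.05. Among CACS livers mouse 20 had -0.42, the level of NCACS mouse 14, and was the highest of its group for 17 of 19 enzymes. The other CACS mice had -1.32 to -1.74, and mouse 18 was the lowest for 12 of 19. In mouse 20, 9 enzymes were above the lowest NCACS liver, against 1, Ggps1, in each other CACS liver. The summed level of the 19 enzymes was 2084 to 3959 CPM in NCACS livers, 836 to 1058 CPM in CACS mice 16 to 19 and 1852 CPM in mouse 20. The 19 enzymes of 1 liver share its library and are not 19 replicates.

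**Figure D4:**
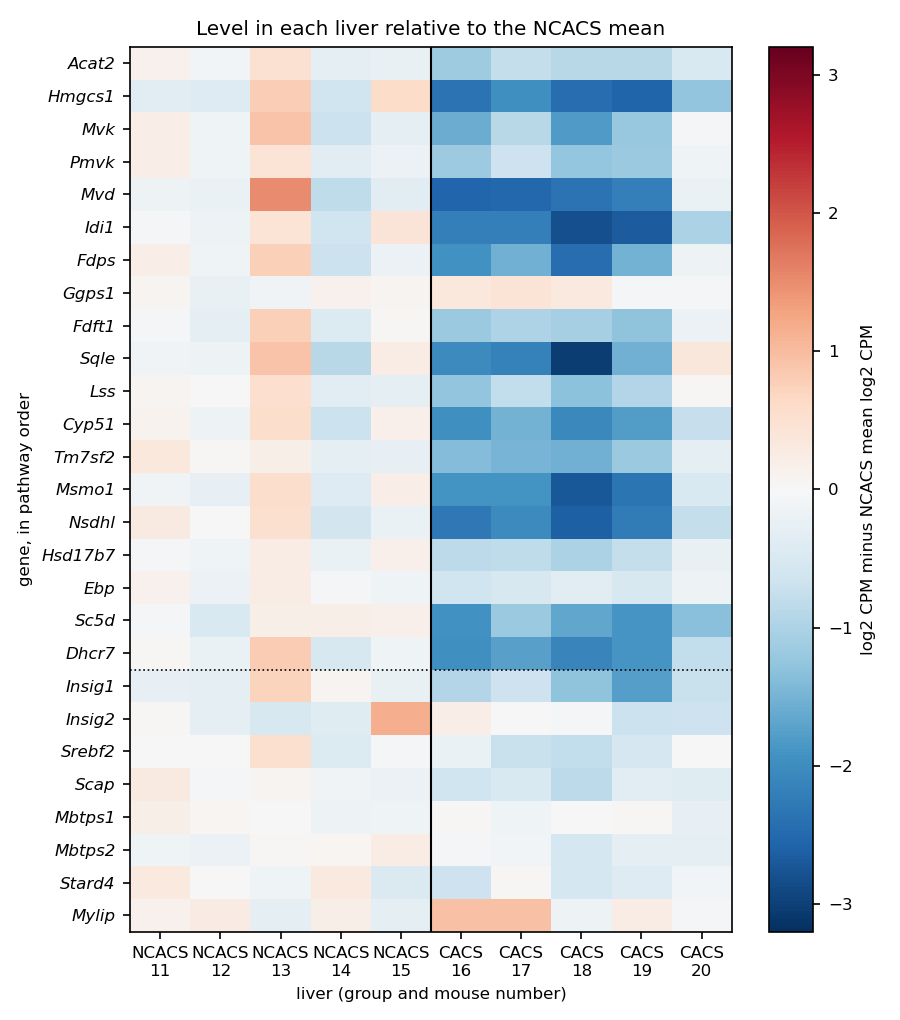
Level of each of the 27 genes (vertical axis, pathway order) in each of the 10 livers (horizontal axis), as log2 CPM minus the NCACS mean, from blue (lower) to red (higher). NCACS mouse 13 is red across most enzymes, CACS mice 16 to 19 are blue, CACS mouse 20 is pale, and the red field of Insig2 in NCACS mouse 15 stands alone.

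The number of genes called moved with single livers. Without CACS mouse 20, 16 genes were called, 10 of them among the 12: Pmvk, Mvd, Fdps, Fdft1, Sqle and Lss were added, and Insig1 and Scap were lost. Leaving out any other single mouse gave between 6 and 11 genes, with 6 without NCACS mouse 11, CACS mouse 16 or CACS mouse 19, 7 without NCACS mouse 13 or CACS mouse 18, 9 without NCACS mouse 12, 14 or 15, and 11 without CACS mouse 17. Calls over all genes fell in the same fits, from 538 with all livers to between 178 and 519. They were 178 without NCACS mouse 11, 192 without CACS mouse 16 and 519 without CACS mouse 17. Hmgcs1, Idi1, Cyp51, Nsdhl, Sc5d and Dhcr7 were called in all 10 of these fits.

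Whether the genes follow weight within a group is a separate question, which did not enter their choice. In a fit with group and weight change together, 0 of the 27 genes had a slope past the threshold, against 0.0141% of all genes (2 of 14143), and 2 of the 27 had an unadjusted p-value under 0.05, against 7.62% of all genes. DESeq2 called 1 of the 27 slopes, against 163 of all 14143 genes. Of the 19 enzymes, 0 had an unadjusted p-value under 0.05. Their slopes ran from -0.08 to 0.04 log2 units per percent of weight change, where a positive slope is a higher level in mice that lost less. Weight change ran only from -33 to -29% in CACS mice, against -14 to -3% in NCACS mice. The slopes therefore rest mostly on the NCACS mice and say little about CACS mice. Stard4 had a slope of 0.0805 (SE 0.0165, unadjusted p = 0.000494, adjusted p = 0.166 in edgeR's test), which stayed between 0.0744 and 0.0892 when single mice were left out and passed in DESeq2 (adjusted p = 0.00229). Its lowest NCACS level, 89.9 CPM, was in mouse 15, which had lost the most weight of that group. Insig2 had a slope of -0.0994 (SE 0.0375, unadjusted p = 0.0227, adjusted p = 0.529 in edgeR's test), and without NCACS mouse 15 it was -0.00445.

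**Figure D5:**
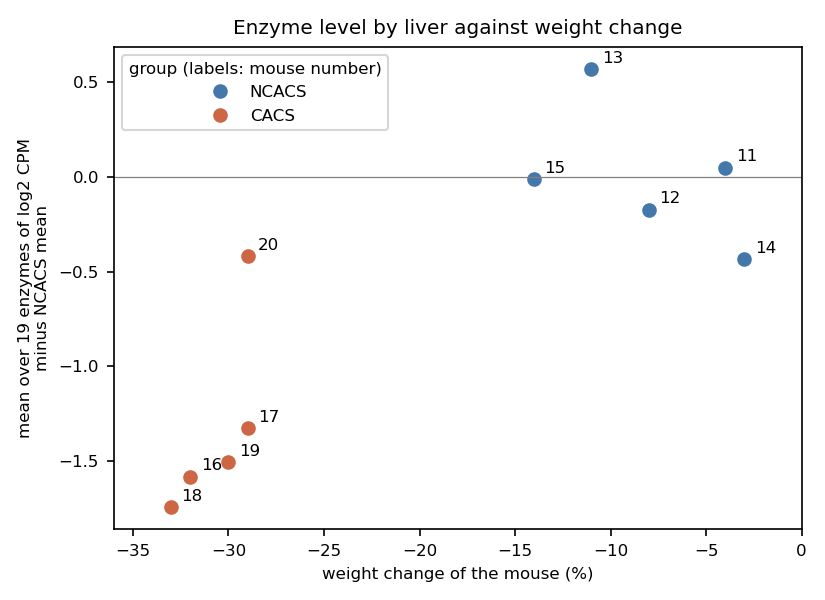
Mean over the 19 enzymes of log2 CPM minus the NCACS mean (vertical axis) against the weight change of the mouse in percent (horizontal axis), 1 numbered point per liver, NCACS in blue and CACS in orange. CACS mouse 20, at -29%, stands at -0.42 beside NCACS mouse 14, and mouse 14, with the smallest loss, is the lowest NCACS liver.

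Genes around the pathway were taken from lists written by role. Of 15 targets of SREBP1 and fatty acid synthesis genes, 3 were lower and 0 higher (median log2 fold change -0.27). Over all tested genes, 1.92% were called lower and 1.89% higher. Acss2, which makes acetyl-CoA from acetate, measured 225, 158, 202, 179 and 119.8 CPM in NCACS mice 11 to 15 and 58.4, 76.4, 54.6, 57.4 and 96.4 CPM in CACS mice 16 to 20. All 5 CACS livers were below all NCACS livers, and the log2 fold change was -1.36 (SE 0.198, adjusted p = 0.00833 in edgeR's test). Elovl5, an elongase of polyunsaturated fatty acids, averaged 367 ± 99.1 CPM (NCACS) against 156 ± 51.7 CPM (CACS), a log2 fold change of -1.23 (SE 0.242, adjusted p = 0.0242 in edgeR's test). Scd1, the stearoyl-CoA desaturase, averaged 2422 ± 1191 CPM (NCACS) against 690.0 ± 365 CPM (CACS), a log2 fold change of -1.81 (SE 0.420, adjusted p = 0.0388 in edgeR's test). Acss2 was called in all 10 fits that left out 1 mouse, with log2 fold changes from -1.52 to -1.26. Elovl5 was called in 6, and lost without NCACS mouse 11 or 14 or CACS mouse 16 or 19, with folds from -1.42 to -1.08. Scd1 was called in 3, and lost without NCACS mouse 11, 13 or 14 or CACS mouse 16, 17, 18 or 19, with folds from -2.14 to -1.55. DESeq2 called 5 of these 15 genes, against 1386 of all 14143 genes.

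Of 8 other sterol-responsive genes and SREBP partners, 1 was lower and 0 higher (median -0.02), against 1.92% lower and 1.89% higher over all genes. Rdh11, a retinol dehydrogenase known as an SREBP target, measured 77.4, 59.7, 91.2, 63.0 and 68.3 CPM in NCACS mice 11 to 15 and 20.7, 36.9, 23.3, 28.0 and 41.0 CPM in CACS mice 16 to 20, a log2 fold change of -1.26 (SE 0.193, adjusted p = 0.0110 in edgeR's test) that remained past the threshold in all 10 fits without 1 mouse. Of 14 genes that take isoprenoids to products other than sterols, 1 was lower and 0 higher (median -0.06), against the same shares. Pdss2, which takes part in building the tail of coenzyme Q, averaged 13.2 ± 1.60 CPM (NCACS) against 8.90 ± 1.49 CPM (CACS). Its log2 fold change was -0.56 (SE 0.136, adjusted p = 0.0435 in edgeR's test). It was called in only 1 of the 10 fits without 1 mouse, that without CACS mouse 17, with folds from -0.62 to -0.49. Pdss1, of the same list, had a log2 fold change of 0.57 (SE 0.233) and was not called by edgeR.

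Of 11 genes for the sterol-regulated degradation of enzymes, 8 of LXR and sterol export, and 11 of ester storage, lysosomal release and uptake, edgeR called 0. At an unadjusted p-value under 0.05, 4, 1 and 1 of them passed, against 3051 of all 14143 genes. DESeq2 called 1, 0 and 1, against 1386 of all genes, and limma-voom called 0 in all 3 lists. The largest folds were those of Rnf145 at 0.54 (SE 0.222) and Erlin1 at -0.33 (SE 0.121) for degradation, Abcg5 at 0.61 (SE 0.212) and Abcg8 at 0.23 (SE 0.214) for export, and Lipa at -0.46 (SE 0.156) and Soat1 at -0.36 (SE 0.228) for storage, all on the log2 scale. Erlin1 encodes a membrane scaffold, Abcg5 and Abcg8 the sterol exporter of bile, Lipa the lysosomal acid lipase and Soat1 an esterifying enzyme. The median log2 fold changes of the 3 lists were 0.00, 0.03 and 0.01.

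Over all genes, edgeR called 538 (3.80%). The 6 hepatocyte markers summed to 65375 to 112643 CPM in NCACS and 104921 to 131655 CPM in CACS livers, and 1 of them, Hnf4a, was higher. The 6 Kupffer cell and macrophage markers summed to 151 to 257 CPM in NCACS and 92.3 to 177 CPM in CACS livers, all 6 had folds below 0, and 1, Cd5l, was lower. Sums for the 5 neutrophil markers were 1.48 to 12.3 CPM in NCACS and 1.08 to 2.60 CPM in CACS livers, for the 6 lymphocyte markers 8.22 to 18.6 and 5.35 to 12.1 CPM, for the 5 cholangiocyte markers 33.6 to 52.7 and 20.3 to 49.4 CPM, for the 6 stellate markers 177 to 276 and 186 to 283 CPM, for the 6 endothelial markers 130 to 184 and 162 to 212 CPM, and for the 4 erythroid markers 203 to 440.1 and 277 to 460.5 CPM, with 0 called in these 6 lists by edgeR. The part of these markers in the folds of the sterol genes was not tested. Of 14 clock genes edgeR called 0 and DESeq2 called 3, the latter against 1386 of all 14143 genes. At an unadjusted p-value under 0.05, 6 clock genes passed, against 3051 of all genes. Of the 6, 4 were higher in CACS livers (Per1, Per2, Cry1 and Bhlhe40) and 2 lower (Npas2 and Nr1d1). The largest 2 folds of the clock genes were Npas2, a log2 fold change of -3.22 (SE 1.11), and Nr1d1, -1.65 (SE 0.514). The largest fold above 0 was that of Per1, 1.23 (SE 0.497). Npas2 was at 7.81 CPM in NCACS mouse 15 and 0.0890 to 0.873 CPM in the other NCACS livers. Its CACS livers had 0 to 0.446 CPM. Nr1d1 was at 38.0 CPM in NCACS mouse 15 and 118 to 200 CPM in the other NCACS livers. In CACS livers Nr1d1 had 14.3 to 72.3 CPM. Per1 was at 5.84 CPM in NCACS mouse 15 and 27.4 to 66.8 CPM in the other NCACS livers. Its CACS livers had 40.6 to 131 CPM. The clock output gene Dbp was at 1.27 CPM in NCACS mouse 15 and 52.1 to 82.9 CPM in the other NCACS livers. Per2 was at 25.8 to 51.7 CPM in the NCACS livers other than mouse 15 and 44.0 to 110 CPM in CACS livers. Without mouse 15, 9 of the 27 sterol genes were called, against 285 of all 14349 genes tested in that fit. The part of the clock genes in the folds of the sterol genes was not tested.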

How the data were processed

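Libraries were made with a stranded mRNA kit and sequenced from 1 end. The authors mapped the reads with STAR 2.4.1d on GRCm38, obtained gene counts with HTSeq 0.6.1 and deposited these counts unscaled. The annotation release and the strand setting of counting are not given in the sources used here. Groups, mouse numbers and weight changes came from the sample labels. A further allele that all 10 mice share is not reported here. Total counts per liver were 31459179 to 40746178, and no 2 livers of a group were alike within sampling noise (lowest chi-square per degree of freedom 46.1). Symbols, positions and exon lengths were taken from GENCODE M21, which lacked 1167 of 43629 identifiers (75 of them tested).

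Counts were filtered with filterByExpr, scaled by TMM and fitted with group as the only term, using edgeR 4.0.16 in R 4.3.3, and the SE of a log2 fold change is its size over the square root of the quasi-likelihood F. A second fit added weight change. Adjusted p-values cover all tested genes, and p-values judge a group difference or slope against the spread between single mice. Log2 CPM used a prior count of 2. The script was tested on simulated data. Alternatives were DESeq2 1.42.0, limma-voom (limma 3.58.1), RLE factors, no scaling factors, no filter, a minimum of 10 counts per liver, a threshold of 0.01 and leaving out each mouse.

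The 27 genes and all lists were chosen with earlier results of these data known. Values in every liver are given for called genes and for the 2 genes with the smallest folds, and other genes by mean and SD. Of other lists, the called genes or else the 2 largest folds are named. Promoter windows are from RefSeq (GRCm38.p6), and 4 of the 27 genes had none. The batch correction in the study's methods was not repeated.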

Additional observations from a re-analysis of the deposited data

Results flagged for a closer look

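Each gene and group was checked for a liver far from the rest, by the gap from the highest or lowest liver to its neighbour as a share of the group's range in log2 CPM (critical value 0.71 for 5 livers). Of 54 combinations 4 passed, and chance gives about 1 in 20. Mvd passed in both groups, with a share of 0.727 for NCACS mouse 13, at 66.0 CPM against 20.4 CPM in the next liver, and of 0.846 for CACS mouse 20, at 19.9 against 5.04 CPM. Fdft1 passed in CACS livers with a share of 0.726 for mouse 20, at 123 against 71.1 CPM. Dhcr7 passed there with a share of 0.711 for mouse 20, at 94.5 against 49.2 CPM. All 4 are high livers, and 3 are CACS mouse 20.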

How the results depend on the processing

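No paired analysis was possible because the mice of the 2 groups share no replicate numbers. DESeq2 called 1386 genes (672 higher, 714 lower), 19 of the 27 sterol genes, all lower, 12 genes of the surrounding lists against 5, 163 slopes on weight and 1 slope among the sterol genes. Without a filter 173 genes were higher and 33 slopes passed. At 0.01, 34 genes were called (14 higher, 20 lower), with 1 sterol gene, lower, and 1 gene of the other lists. Leaving out single mice gave 178 to 519 genes, 79 to 246 higher and 96 to 273 lower, 6 to 16 sterol genes, all lower, 2 to 5 genes of the other lists, and 0 to 6 slopes. The log2 fold change of Insig2 ran from -0.46 without NCACS mouse 13 to 0.087 without NCACS mouse 15, where its sign reversed. The cause was not tested. limma-voom, RLE factors, raw totals, no filter and the minimum of 10 counts called the same 12 sterol genes. The median fold of the 27 stayed between -1.16 and -0.72 without single mice. The median of all genes moved by under 0.1 under any setting.

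The lowest count of any of the 27 genes in a liver was 112, for Idi1. With 5 livers a group, leaving out single mice ended the call of 6 of the 12 genes in at least 3 of 10 fits.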
